A study of Mus musculus with 12 samples.

Results

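The integrated stress response and the unfolded protein response were followed as 35 genes, listed by symbol as known members of the pathways, with no measured value in the rule. The set was split into 17 genes of the ATF4 arm (Atf4, its partner factors and the targets that serve amino acid supply and feedback) and 18 genes of the endoplasmic reticulum (ER) arm (the 3 ER sensors, Xbp1, and chaperones and degradation factors of the ER). All 35 were among the 24346 gene symbols of the tables, and all 35 passed the filter of at least 1 FPKM in at least 3 libraries, which left 11808 genes. FPKM is the number of sequenced fragments per unit of transcript length and of depth, a value per length that allows levels of different genes to be compared.

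The RNA came from macrophages sorted out of mouse tumours, and every mouse carried the Arg1-RFP reporter, in which red fluorescence follows the gene of arginase 1. The tumours were B16F10, a mouse melanoma line, or MC38, a mouse colon adenocarcinoma line. Sorted cells were positive for CD45, MHCII, F4/80 and CD11b and negative for CD90.2, B220, NK1.1, Ly6G and Ly6C. Each tumour gave cells with the red reporter signal (RFP+) and cells without it (RFP-). The 4 groups were thus B16F10 RFP+, B16F10 RFP-, MC38 RFP+ and MC38 RFP-, with 3 libraries each, and the labels give no treatment, time after grafting or age of the mice. No group came from tumour-free tissue or from a mouse without the reporter. Library values are given below in the order of the numbers in the sample titles, which are 12, 11 and 3 in B16F10 and 1, 2 and 3 in MC38. The labels do not tie a library to an animal, so the p-values measure the spread between these libraries, which may be partly technical.

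Both responses lower or reshape protein synthesis when a cell is short of amino acids or when unfolded proteins build up in the ER. In the integrated stress response, kinases that sense the stress phosphorylate the translation factor eIF2, general translation falls, and the messenger RNA of Atf4 is translated better; ATF4 then switches on genes for amino acid synthesis, amino acid uptake and, if stress lasts, Ddit3 (CHOP). In the unfolded protein response, the ER membrane proteins PERK (Eif2ak3), IRE1 (Ern1) and ATF6 (Atf6) sense unfolded protein; PERK feeds into ATF4, IRE1 splices Xbp1 messenger RNA, and cleaved ATF6 enters the nucleus, so that chaperones and degradation factors of the ER are made. Macrophages are secretory and phagocytic cells, in which these pathways also take part in the control of cytokine output and survival. FPKM per gene counts messenger RNA only and does not show eIF2 phosphorylation, Xbp1 splicing or ATF6 cleavage.

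Sequence elements through which the factors are known to act were searched in the member promoters, and those with a match and the largest differences between tumours are shown. In the 250 bases before the transcription start (RefSeq, GRCm38.p6, the assembly that mm10 also names), 31 of the 35 members had a promoter entry, and Slc7a5, Atf6, Manf and Hyou1 were not among them. Both strands were searched for 3 motifs. The ER stress element bound by ATF6 with NF-Y (CCAAT, any 9 bases, CCACG) was found in 7 members (Calr, Canx, Creld2, Dnajc3, Hsp90b1, Hspa5 and Pdia6), all of the ER arm, against 0.13% of the promoters of 27025 genes. The C/EBP-ATF element bound by ATF4 (TGATGNAAN) was found in 4 members (Asns, Chac1, Pycr1 and Herpud1), against 3.89% of all promoters. The unfolded protein response element (TGACGTGG) was in 0 of 31 members and in 0.603% of all promoters. No member held more than 1 kind of element. A match is a match of letters, and binding was not measured.

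Of the members with a match, 6 sequences are given, written 5′ to 3′ along the strand of the gene, with the matched element in capitals. Herpud1, an ER arm gene with the ATF4-type element, is among them by the size of its difference between tumours. It was also the only member past the threshold in any comparison of the reporter gates, though not in the main fit (values below). The stretches are chr6:7693214-7693242 (minus strand) for Asns, chr2:119350992-119351116 (plus) for Chac1, chr11:120643783-120643911 (minus) for Pycr1, chr8:94386256-94386384 (plus) for Herpud1, chr15:88819460-88819598 (plus) for Creld2 and chr2:34772020-34772048 (plus) for Hspa5. The annotation places the elements of Asns and Hspa5 inside exons of alternative transcripts of these genes, and only 29 bases are shown there. The other 4 stretches held no annotated exon.
Asns: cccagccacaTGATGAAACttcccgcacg
Chac1: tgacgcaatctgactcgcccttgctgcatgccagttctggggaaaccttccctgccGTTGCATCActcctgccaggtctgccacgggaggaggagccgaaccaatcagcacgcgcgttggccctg
Pycr1: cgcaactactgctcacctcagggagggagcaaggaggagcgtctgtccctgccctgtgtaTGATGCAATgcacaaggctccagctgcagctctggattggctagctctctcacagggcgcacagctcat
Herpud1: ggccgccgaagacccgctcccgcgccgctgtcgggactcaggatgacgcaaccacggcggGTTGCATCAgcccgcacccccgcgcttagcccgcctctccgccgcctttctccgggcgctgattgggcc
Creld2: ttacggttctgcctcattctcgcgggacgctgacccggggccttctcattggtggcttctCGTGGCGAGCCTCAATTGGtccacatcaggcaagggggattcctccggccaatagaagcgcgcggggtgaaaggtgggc
Hspa5: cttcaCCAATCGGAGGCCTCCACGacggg

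The libraries held 614875 to 815591 FPKM in total, with 10445 to 11103 genes at 1 FPKM or more. Low values are coarser in B16F10, where a single read stands for 3.02 to 3.62 times the FPKM that it stands for in the deepest MC38 library. All 10 macrophage core genes (Csf1r, Cd68 and others) reached 1 FPKM in every library, but their summed level was 6836 to 13141 FPKM in B16F10 RFP+ and 5012 to 8830 in B16F10 RFP-, against 34370 to 35385 in MC38 RFP+ and 24883 to 27732 in MC38 RFP-. The 7 melanocytic genes (Pmel, Tyrp1, Dct and others), which mark the B16F10 tumour cells themselves, summed to 8073 to 10618 FPKM in B16F10 RFP+ and 8088 to 10616 in B16F10 RFP-, against 10.9 to 19.1 in MC38. Arg1 was higher in RFP+ than in RFP- libraries of the same tumour without overlap, at 615 to 916 against 56.2 to 125 FPKM in B16F10 and 394 to 553 against 40.6 to 58.5 in MC38. Library B16F10 RFP- number 12 stood apart, with the highest total FPKM and 10597 genes listed at 0, against 8479 to 10081 in the other 11. Gate results that rest on it are given with and without it, as are the member counts and some single genes between tumours. The other tumour differences include it.

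Hspa5 (BiP), the main ER chaperone of the HSP70 family, was the highest, with a mean of 1002 FPKM over the 12 libraries. It was followed by Hsp90b1 (GRP94), its HSP90-type partner, at 445 FPKM, and Pdia6, a disulfide isomerase, at 345. The order of the ATF4 arm differed between tumours. In B16F10 its highest genes were Asns (asparagine synthetase), with means of 231 FPKM in RFP+ and 297 in RFP-, and Phgdh, the first enzyme of serine synthesis, with 199.9 and 320.2. In MC38 they were Slc3a2, with 184 and 156 FPKM, and Ppp1r15a, with 149 and 149.7, while Asns and Phgdh had means of 56.4 to 64.7. The ER sensors were low, with means of 12.5 for Atf6, 4.03 for Eif2ak3 and 3.77 for Ern1. The lowest members were Pycr1, the last enzyme of proline synthesis, at 3.65 and Atf5, an ATF4-related factor, at 1.26 FPKM.

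Whether the stress genes follow the Arg1 reporter was asked within each tumour. None of the 35 members passed the threshold (adjusted p under 0.05, limma with Benjamini-Hochberg adjustment over 11808 genes) between RFP+ and RFP- libraries of B16F10, where 0.178% of all genes passed. None passed in MC38 either, where 0.0254% of all genes passed, nor in the mean of both tumours, where 0.449% passed. At an unadjusted p under 0.05 (limma) there were 5 members of 1159 genes in B16F10, 1 of 396 in MC38 and 2 of 880 in the mean. These gene counts were 9.82%, 3.35% and 7.45% of the 11808 genes. Libraries with the same title number deviated together (processing section), so each comparison was also fitted with that number as a block. With the block, 0 members passed in B16F10 (1.36% of all genes) and 0 in MC38 (0.44%), and 1 member, Herpud1, passed in the mean of both tumours (1.92%). Both gates of B16F10 held melanocytic genes at similar sums (given above), and the part of tumour cell RNA in their comparison was not tested.

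Herpud1 encodes an ER membrane protein that organizes the degradation of ER proteins, and its messenger RNA was lower in RFP+ cells of both tumours. In MC38 it stood at 85.9, 79.9 and 113 FPKM in RFP+ and 154, 162 and 160.4 in RFP- libraries. The MC38 groups did not overlap. In B16F10 it stood at 59.99, 86.4 and 47.9 FPKM in RFP+ and 95.3, 87.8 and 71.1 in RFP- libraries. Here the groups overlapped, the RFP- library was the higher of its pair in all 3 pairs, and in the pair number 11 both were nearly level. The log2 difference (RFP+ minus RFP-, of FPKM + 1) was -0.78 ± 0.20 (SE) in MC38 (adjusted p = 0.372, limma) and -0.41 ± 0.20 in B16F10 (adjusted p = 0.497, limma). The mean over both tumours was -0.60 ± 0.14, lower in RFP+ in 6 of 6 pairs, with an adjusted p of 0.123 without and 0.0159 with the block. Over the other settings that adjusted p ran from 0.0159 to 0.358, and it also passed without B16F10 RFP+ number 11 (0.0283).

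In each of the 6 pairs the summed macrophage core genes were higher and the summed dendritic cell genes lower in the RFP+ library. The core sum is weighted by Lyz2, at 15702 to 19408 FPKM in MC38 RFP+ and 9144 to 12202 in RFP-. By log2 difference, 8 of the 10 core genes were higher and 2 lower in RFP+ in B16F10, and 7 and 3 in MC38. Csf1r was lower in RFP+ in all 3 MC38 pairs (537, 579 and 606 against 563, 602 and 644 FPKM). The 5 dendritic cell genes summed to 6.77 to 15.8 FPKM in B16F10 RFP+ against 14.0 to 48.9 in RFP-, and to 12.8 to 36.0 against 21.0 to 62.3 in MC38. Of these, Xcr1 was lower in RFP+ in the mean of both tumours (log2 difference -0.85 ± 0.15, adjusted p = 0.031, limma). The 7 immediate early genes also summed higher in the RFP+ library of each of the 6 pairs, at 1136 to 1737 FPKM against 866 to 1312 in B16F10 and 3258 to 4851 against 2986 to 4376 in MC38. The summed neutrophil genes were lower in RFP+ in all 3 B16F10 pairs (25.0 to 314 against 29.5 to 820 FPKM), and the summed plasma cell genes higher in RFP+ in all 3 MC38 pairs (6.21 to 12.8 against 3.53 to 6.31). The part of these genes in the Herpud1 difference was not tested, and in bulk RNA fewer cells of a type and less RNA per cell cannot be told apart.

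**Figure D1:**
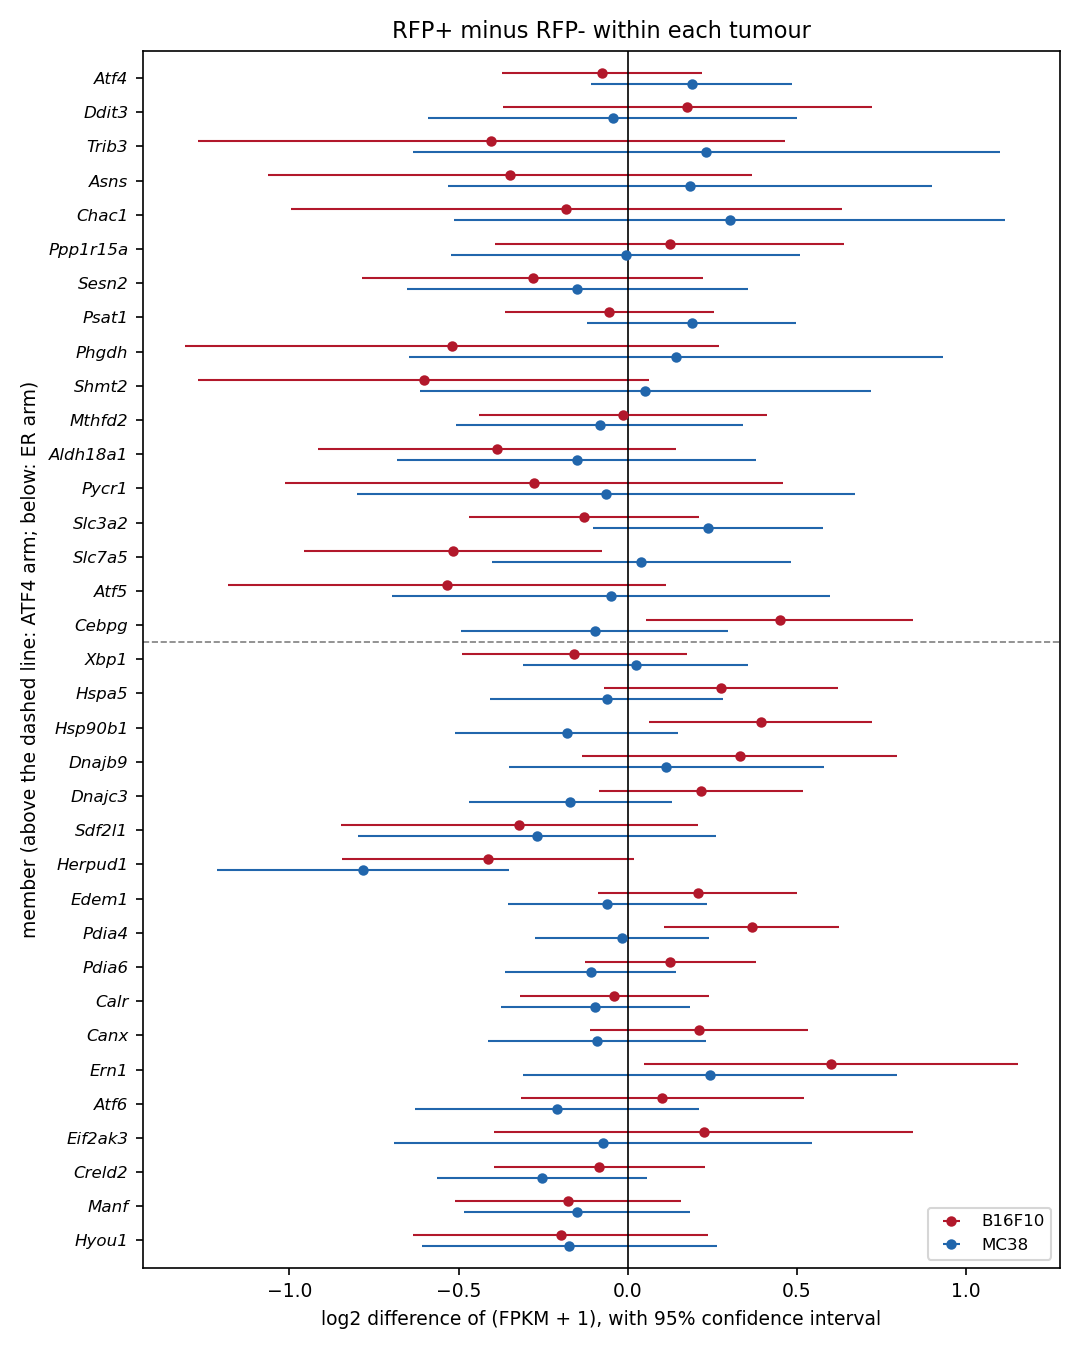
Log2 difference of FPKM + 1 between RFP+ and RFP- libraries for the 35 genes, in B16F10 (red) and MC38 (blue), 3 libraries a group. Points are limma estimates and lines their 95% confidence intervals; no gene passed the adjusted threshold without the block, and Herpud1 has the lowest estimate in MC38 (-0.78).

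The regulators did not pass between the gates in either tumour. Atf4, the transcription factor that names the arm, stood at 66.2, 74.6 and 78.0 FPKM in B16F10 RFP+ and 79.3, 79.4 and 71.7 in RFP-, and at 65.0, 61.0 and 48.3 in MC38 RFP+ and 54.3, 47.1 and 50.3 in RFP-. The groups overlapped in both tumours. Its log2 differences were -0.08 in B16F10 (95% interval -0.37 to 0.22) and 0.19 in MC38 (-0.11 to 0.48). Ddit3, the factor CHOP of prolonged stress, had 0.18 (-0.37 to 0.72) in B16F10 and -0.04 (-0.59 to 0.50) in MC38. Xbp1, whose messenger RNA IRE1 splices, had -0.16 (-0.49 to 0.17) and 0.02 (-0.31 to 0.36). For Hspa5 the values were 0.28 (-0.07 to 0.62) in B16F10 and -0.06 (-0.41 to 0.28) in MC38. Of the ER sensors, the PERK gene Eif2ak3 had 0.22 in B16F10 and -0.07 in MC38, the IRE1 gene Ern1 had 0.60 and 0.24, and Atf6 had 0.10 and -0.21. Ern1 was the higher of its pair in RFP+ in 6 of 6 pairs, from 1.05, 2.30 and 3.00 to 2.68, 3.93 and 4.20 FPKM in B16F10, and its mean difference of 0.42 ± 0.18 did not pass (adjusted p = 0.618, with the block 0.211, limma).

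The other members were spread to both sides of 0 in B16F10. In the ATF4 arm the median log2 difference was -0.28, against -0.01 over all genes, and 7 of 17 members were lower in RFP+ in all 3 pairs and 1, Cebpg, higher. The share of all genes with 1 direction in all 3 pairs was not counted, here or below. Counts by pairs therefore say nothing particular about the members. Slc7a5, the light chain of the amino acid transporter LAT1, was the only arm member without overlap, at 52.8, 58.0 and 41.7 FPKM in RFP+ and 87.2, 71.7 and 61.1 in RFP- (log2 -0.52 ± 0.20, adjusted p = 0.482, limma). Without overlap, 1 of 17 arm members was thus lower and 0 were higher, where 6.22% of all genes were lower and 5.72% higher. The largest differences among members with at least 5 FPKM on average were in Shmt2, the serine to glycine enzyme of mitochondria (-0.60 ± 0.31, adjusted p = 0.502), Phgdh (-0.52 ± 0.37, 0.562), Slc7a5, Cebpg, a partner factor of ATF4 (0.45 ± 0.18, 0.491), Herpud1 and Trib3, a pseudokinase that damps ATF4 signalling (-0.40 ± 0.40, 0.675). All these adjusted p-values are limma's and missed the threshold.

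The lower median of the ATF4 arm in B16F10 depended on 2 libraries. RFP- number 12 was the highest of the 6 B16F10 libraries for 12 of 17 ATF4 arm genes, for example Phgdh at 560.3 FPKM against 143 to 243 in the other 5, Shmt2 at 266 against 75.0 to 110.0 and Trib3 at 174 against 45.1 to 86.9. In the ER arm it was the lowest of the 6 for 9 of 18 genes, among them Hspa5 at 578 against 728 to 967 and Hsp90b1 at 307 against 426 to 552, and the highest for 7. Without it the arm medians in B16F10 were -0.01 (ATF4) and 0.07 (ER), against -0.28 and 0.17 with it. Without RFP+ number 3 the ATF4 arm median was -0.05, and without any other single B16F10 library it was -0.41 to -0.30. On leaving out RFP- number 12, Trib3 turned from -0.40 to 0.15, and Shmt2 shrank to -0.14 and Phgdh to -0.02.

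In the ER arm of B16F10, 7 of 18 members were higher in RFP+ in all 3 pairs and 1, Herpud1, lower (share of all genes not counted). Pdia4, a disulfide isomerase, stood at 263, 261 and 286 FPKM in RFP+ and 200.3, 218 and 209.6 in RFP-, and Hsp90b1 at 524, 552 and 503 and 307, 491 and 426. Both genes had no overlap between the gates, and neither passed (Pdia4 0.37 ± 0.12, adjusted p = 0.426, and Hsp90b1 0.39 ± 0.15, adjusted p = 0.482, limma). Without overlap, 2 of 18 arm members were thus higher and 0 lower, where 5.72% of all genes were higher and 6.22% lower.

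In MC38 the ER arm leaned the other way, with small differences. Of its 18 members, 11 were lower in RFP+ in all 3 pairs (share of all genes not counted). Without overlap, 7 were lower (Herpud1, Hsp90b1, Dnajc3, Calr, Atf6, Creld2 and Manf), where 4.98% of all genes were lower without overlap. Dnajb9 and Ern1 were higher without overlap, as were 6.33% of all genes. The arm's median was -0.10, against 0.00 over all genes, and apart from Herpud1 no member reached a log2 difference of -0.30. After Herpud1 the largest differences with at least 5 FPKM were in Chac1, which breaks down glutathione (0.30 ± 0.38), Sdf2l1, an ER cochaperone (-0.27 ± 0.24), Creld2, a disulfide isomerase-like protein (-0.25 ± 0.14), Slc3a2, the heavy chain shared by amino acid transporters (0.24 ± 0.16), and Trib3 (0.23 ± 0.40), each with an adjusted p of 1 (limma). The ATF4 arm had a median of 0.04, with 1 member higher and 2 lower in all 3 pairs.

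Whether the gate difference itself depended on the tumour was tested as an interaction. No member passed, and none of the 11808 genes did (0%). An unadjusted p under 0.05 (limma) was reached by 455 genes (3.85%), 2 of them members. With the block, 0 members and 0.0339% of genes passed. There were 4 members higher in RFP+ in 3 of 3 B16F10 pairs and lower in 3 of 3 MC38 pairs: Cebpg, Hspa5, Hsp90b1 and Pdia6 (share of all genes not counted). As they were picked by these signs, a positive difference between tumours followed from the choice. Their differences between tumours (B16F10 minus MC38) were 0.55 (-0.01 to 1.10) for Cebpg, 0.34 (-0.15 to 0.83) for Hspa5, 0.57 (0.11 to 1.04) for Hsp90b1 and 0.24 (-0.12 to 0.59) for Pdia6, with 95% intervals, and an adjusted p of 0.895 each (limma). Phgdh (-0.66), Shmt2 (-0.66), Trib3 (-0.64) and Slc7a5 (-0.56) had the largest differences in the other direction, also at 0.895. Without B16F10 RFP- number 12 the values were -0.16 for Phgdh, -0.19 for Shmt2 and -0.08 for Trib3, and 0.38 for Hsp90b1.

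**Figure D2:**
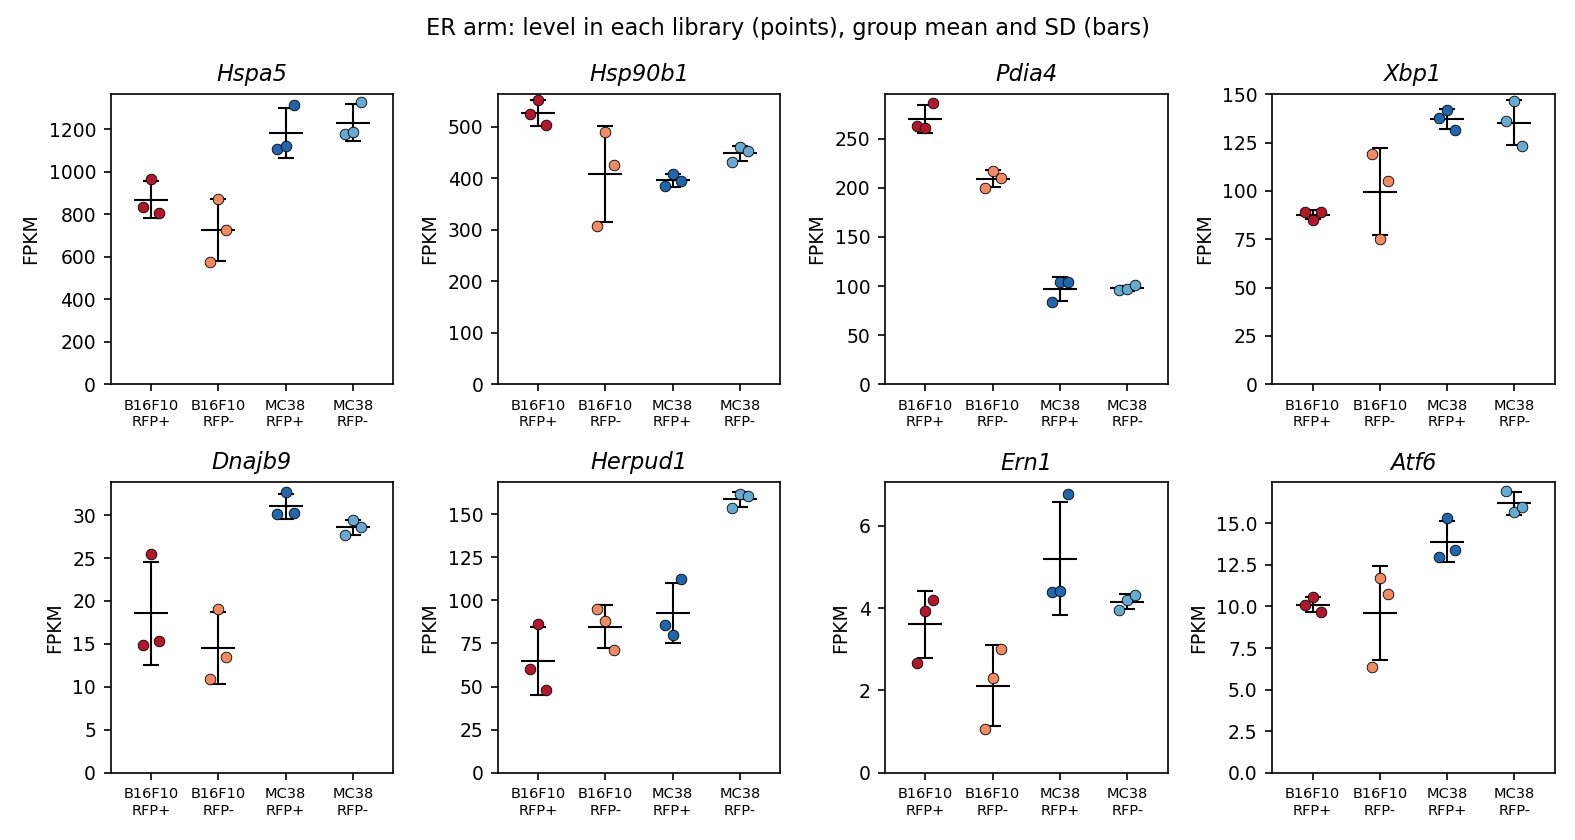
FPKM of 8 ER arm genes in each of the 12 libraries (points), with the mean and SD of the 3 libraries of each group (bars), every axis starting at 0. Herpud1 is lower in RFP+ than in RFP- in MC38 without overlap, and Pdia4 separates the tumours (200 to 286 FPKM in B16F10, 83.4 to 104 in MC38).

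The second comparison asked how cells of the same gate differed between tumours, and here most members moved. The ATF4 arm was higher in B16F10, with 14 of 17 members higher and 2 lower as the mean of both gates, where 44% of all genes were higher and 25.4% lower. The ER arm was divided, with 6 of 18 members higher and 8 lower (all lower members turned positive when values were scaled to the macrophage core genes), or 5 and 7 with the title number as a block (41.3% and 23.9% of all genes with the block). In all, 30 of 35 members passed, where 69.4% of all genes did. Without B16F10 RFP- number 12 the counts were 14 and 3 in the ATF4 arm and 6 and 7 in the ER arm. The median log2 difference (B16F10 minus MC38) was 1.74 in the ATF4 arm and 0.13 in the ER arm, against 0.23 over all genes. In RFP+ cells alone, 11 ATF4 arm genes were higher and 3 lower, and 6 and 4 of the ER arm (24 of 35 members, where 55.2% of all genes passed, 35.2% higher and 20% lower). In RFP- cells alone, the counts were 13 and 2 in the ATF4 arm and 3 and 8 in the ER arm (26 of 35 members, where 59.7% of all genes passed, 37.8% higher and 21.9% lower). Without overlap in RFP+, 22 members were higher and 9 lower (43.9% and 24.8% of all genes), and in RFP-, 18 and 10 (39.2% and 22.8%). Over both gates together, 16 were higher and 7 lower without overlap (31.9% and 17.5%).

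These differences run together with the marker genes. The melanocytic sum was at least 8073 FPKM in every B16F10 library and at most 19.1 in MC38, while the summed macrophage core, fibroblast and immediate early genes were lower in B16F10 without overlap (fibroblast 0.112 to 1.09 against 46.9 to 62.3 FPKM, immediate early 866 to 1737 against 2986 to 4851). The 5 plasma cell genes, which mark cells with a large ER, summed to 12.9 to 27.1 FPKM in B16F10 and 3.53 to 12.8 in MC38, with 1 of the 5 at 1 FPKM or more in every library. Summed B cell genes stood at 5.80 to 19.01 against 16.9 to 35.1 FPKM, endothelial genes at 0.982 to 2.76 against 9.40 to 18.3, epithelial genes at 0.267 to 2.27 against 6.36 to 12.3 (Krt19 at 0 in all), T cell genes at 1.76 to 5.87 against 0.808 to 2.18 and NK cell genes at 0.122 to 1.41 against 0.559 to 8.15. The summed neutrophil genes ran from 25.0 to 820 FPKM in B16F10 and from 40.2 to 44.9 in MC38. Genes within a list could differ in direction. Of 2 B cell genes kept, 1 passed as higher and 1 as lower in B16F10 (mean of both gates). Of 5 neutrophil genes, 4 passed as higher and 1 as lower, beside 44% and 25.4% of all genes. The part of other cells' RNA in the tumour differences was not tested, and tumour, depth and library set cannot be told apart. When values were scaled to the macrophage core genes, the median of all genes moved from 0.23 to 2.25, 92.9% of all genes were higher and 2.23% lower, and all 10 members that were lower turned positive, of which Ppp1r15a did not pass. Under it, 16 of 17 ATF4 arm and all 18 ER arm members passed as higher. Quantile normalization gave 35.6% of all genes higher and 32.3% lower, upper-quartile scaling 38.6% and 29.3%, and both put the ER arm's median just below 0 (-0.01).

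**Figure D3:**
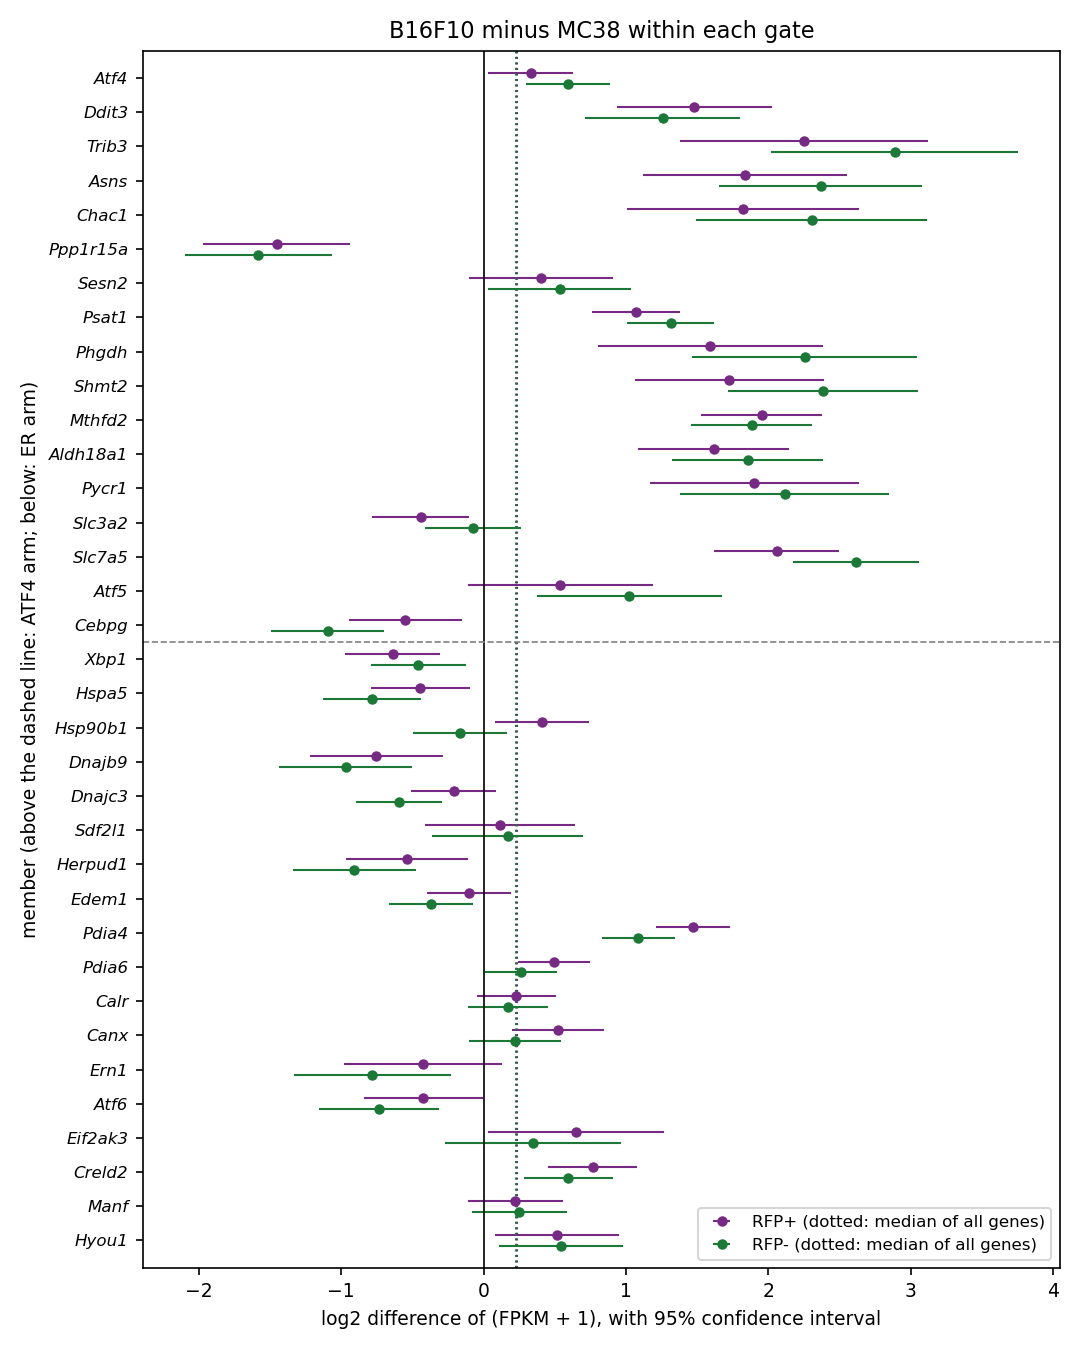
Log2 difference of FPKM + 1 between B16F10 and MC38 for the 35 genes, in RFP+ (purple) and RFP- (green), with limma's 95% confidence intervals; dotted lines mark the median of all genes (0.23 in both gates). Most ATF4 arm genes lie above 1, while Ppp1r15a, Cebpg, Slc3a2 (which did not pass) and 8 ER arm genes lie below 0 as means of both gates, a sign that turns when values are scaled to the macrophage core genes.

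Atf4 itself differed modestly. It stood at 66.2, 74.6 and 78.0 FPKM in B16F10 RFP+ against 65.0, 61.0 and 48.3 in MC38 RFP+, and at 79.3, 79.4 and 71.7 against 54.3, 47.1 and 50.3 in RFP-. All 6 B16F10 libraries were above the highest MC38 library. The mean log2 difference was 0.46 ± 0.10 (adjusted p = 0.000806, limma), which is 0.23 above the median of all genes, and in RFP+ alone 0.33 ± 0.14 did not pass (adjusted p = 0.0554).

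Ddit3 and Trib3, which lie downstream of ATF4, differed more. Ddit3 stood at 89.2, 132 and 132 FPKM in B16F10 RFP+ and 91.5, 107 and 109.9 in RFP-, against 30.3, 34.7 and 65.1 and 39.6, 36.6 and 52.1 in MC38. Trib3 stood at 86.9, 56.2 and 45.1 and 174, 64.3 and 45.9, against 13.1, 16.1 and 7.94 and 11.8, 9.64 and 8.73. Neither gene's B16F10 libraries overlapped with the MC38 ones. The mean log2 difference was 1.37 ± 0.18 for Ddit3 (adjusted p = 1.38e-05) and 2.57 ± 0.28 for Trib3 (2.99e-06, limma), the latter a 5.93-fold difference on the scale of FPKM + 1. Without B16F10 RFP- number 12 it was 2.29 for Trib3. Ddit3 shares exon positions with Mars on the other strand. The same holds for Ppp1r15a (with Tulp2), Shmt2 (Ndufa4l2), Atf5 (Il4i1 and Nup62), Pdia6 (Atp6v1c2) and Manf (Dcaf1, and Rbm15b on its own strand), and with the strand setting of the counting unknown, reads of these partners cannot be told apart from theirs. Cebpg, Hsp90b1, Dnajb9, Pdia4 and Eif2ak3 share exon positions with annotated genes of other kinds than protein-coding. Chac1 (2.06 ± 0.27, adjusted p = 1.3e-05, 8.81 to 33.3 against 2.37 to 4.52 FPKM) moved the same way.

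Not every factor of the arm was higher. Cebpg was lower in B16F10 (-0.82 ± 0.13, adjusted p = 7.46e-05), at 8.48 to 15.8 FPKM against 18.6 to 21.8 in MC38, and had 1.19 when scaled to the macrophage core genes. Ppp1r15a (GADD34), the phosphatase subunit that reverses eIF2 phosphorylation, was the lowest of all members relative to MC38. It stood at 57.6, 73.8 and 36.1 FPKM in B16F10 RFP+ and 48.6, 65.6 and 37.1 in RFP-, against 137, 144 and 165 and 138, 144 and 167 in MC38. The tumours did not overlap in either gate, and the mean log2 difference was -1.52 ± 0.17 (adjusted p = 3.19e-06), or 0.50 when scaled to the macrophage core genes. Of the 7 immediate early genes, whose summed level is given above, 6 were also lower in B16F10, and their part in the Ppp1r15a difference was not tested. Sesn2, a stress-induced inhibitor of mTORC1 signalling, had 0.47 ± 0.17 (0.0222) with overlapping groups, and it missed the threshold when MC38 RFP+ 3, MC38 RFP- 3 or B16F10 RFP+ 12 was left out (adjusted p up to 0.0645), and under quantile normalization and upper-quartile scaling. Atf5 had 0.78 ± 0.21 (0.00496) at levels of 0.397 to 4.66 FPKM and missed the threshold under quantile normalization (adjusted p = 0.115).

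The enzymes of amino acid and one-carbon metabolism moved 1 way. All 7 (Asns, Phgdh, Psat1, Shmt2, Mthfd2, Aldh18a1 and Pycr1) were higher in B16F10 in both gates, with mean log2 differences from 1.19 to 2.10, and no enzyme's B16F10 libraries overlapped with its MC38 libraries. Of all genes, 44% were higher and 31.9% higher without overlap, and these 7 were set together by known role after their values were seen. Asns stood at 265, 286 and 143 FPKM in B16F10 RFP+ and 409, 301 and 181 in RFP-, against 73.7, 57.0 and 54.7 and 82.5, 40.9 and 46.0 in MC38 (2.10 ± 0.23, adjusted p = 3.19e-06). Its element is in the first sequence shown above.

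In the serine pathway, Phgdh stood at 243, 213 and 143 and 560.3, 229 and 172 FPKM in B16F10, against 74.1, 67.3 and 52.7 and 83.7, 44.5 and 52.1 in MC38 (1.92 ± 0.26, adjusted p = 1.84e-05). Psat1, the second enzyme of that pathway, was at 85.6 to 102 against 33.9 to 47.1 FPKM (1.19 ± 0.10, 2.35e-07). Shmt2 was at 75.0 to 266 against 22.5 to 31.7 (2.05 ± 0.22, 2.05e-06). Mthfd2, which carries one-carbon units in mitochondria, followed the same order. It stood at 163, 176 and 112 FPKM in B16F10 RFP+ and 157, 182 and 116 in RFP-, against 38.8, 33.9 and 39.8 and 40.4, 34.3 and 45.0 (1.92 ± 0.14, adjusted p = 5.36e-08, limma). Without B16F10 RFP- number 12 the mean log2 differences were 1.97 for Asns, 1.67 for Phgdh and 1.82 for Shmt2.

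The proline enzymes followed. Aldh18a1, the first of them, was at 30.6 to 75.0 FPKM in B16F10 against 10.3 to 15.8 in MC38 (1.74 ± 0.17, adjusted p = 1.17e-06, limma). Pycr1 was at 2.94 to 11.9 against 0.478 to 1.06 FPKM (2.01 ± 0.24, 6.44e-06), low enough in MC38 that the added 1 FPKM shrinks its difference.

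The subunits of the LAT1 transporter parted ways. Slc7a5, the transporting chain, stood at 52.8, 58.0 and 41.7 FPKM in B16F10 RFP+ and 87.2, 71.7 and 61.1 in RFP-, against 11.1, 9.84 and 13.3 and 11.9, 8.15 and 13.6 in MC38 (2.34 ± 0.14, adjusted p = 1.21e-08). This was a 5.05-fold difference without overlap. Slc3a2, the heavy chain that anchors it, stood at 129, 158 and 122 and 179, 154 and 118 FPKM in B16F10, against 181, 173 and 199 and 156, 148 and 165, and did not pass as the mean of both gates (-0.26 ± 0.11, adjusted p = 0.0541). It was lower in RFP+ alone (-0.44 ± 0.16, 0.0297), a call that 4 of 12 single libraries ended when left out (adjusted p up to 0.109) and that turned to 1.47 when scaled to the macrophage core genes.

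**Figure D4:**
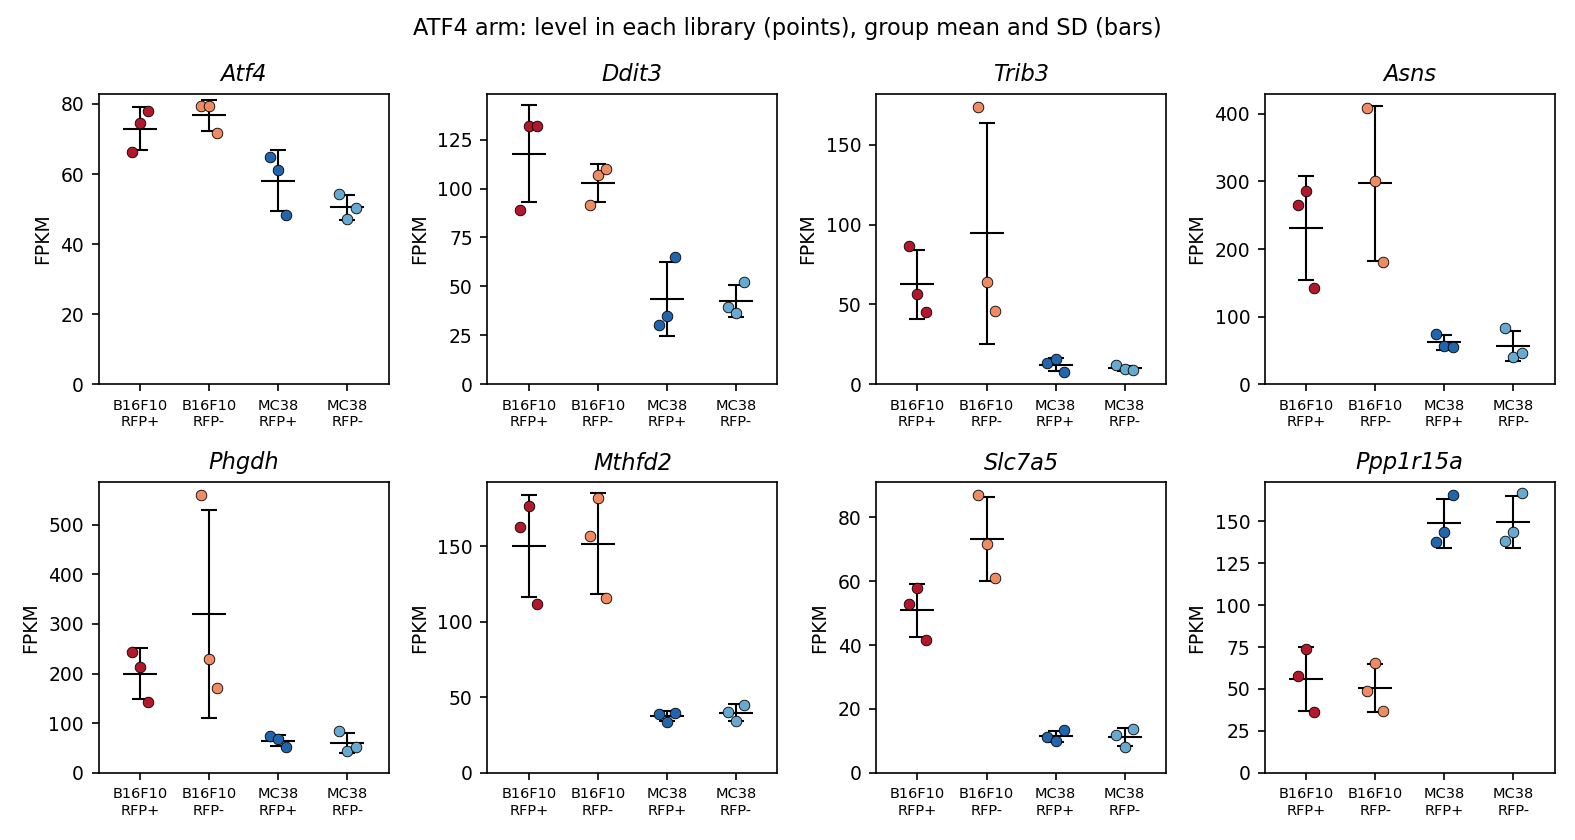
FPKM of 8 ATF4 arm genes in each of the 12 libraries (points), with the mean and SD of the 3 libraries of each group (bars), every axis starting at 0. Apart from Ppp1r15a, which is higher in MC38, each gene is higher in all B16F10 libraries than in all MC38 libraries, and B16F10 RFP- number 12 is the top point for Trib3, Asns, Phgdh and Slc7a5.

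In the ER arm the sensors did not move as 1 group. Eif2ak3 (PERK) was at 3.43 to 5.86 FPKM in B16F10 and 1.46 to 4.35 in MC38 (0.50 ± 0.20, adjusted p = 0.0419), and 8 of the 12 single libraries ended the call when left out (adjusted p up to 0.105), as did the block (0.0999), the fit with no filter, quantile normalization and upper-quartile scaling. Ern1 (IRE1) was lower in B16F10, at 1.05 to 4.20 against 3.96 to 6.78 FPKM (-0.60 ± 0.18, 0.00933), a call that the block without the pair number 12 ended (adjusted p = 0.0804). Atf6 was also lower, at 6.39 to 11.7 against 13.0 to 17.0 FPKM without overlap (-0.58 ± 0.14, 0.00204). Relative to the median of all genes these were 0.27 for Eif2ak3, -0.83 for Ern1 and -0.81 for Atf6. Scaled to the macrophage core genes, Ern1 turned to 1.41 and Atf6 to 1.44.

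Xbp1 stood at 89.1, 85.0 and 89.0 FPKM in B16F10 RFP+ and 119, 75.0 and 105 in RFP-, against 138, 142 and 132 and 136, 146 and 123 in MC38. The tumours did not overlap in either gate, and the mean log2 difference was -0.55 ± 0.11 (adjusted p = 0.000527, limma), or 1.46 when scaled to the macrophage core genes.

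Chaperones moved in both directions. Hspa5 stood at 835, 967 and 805 FPKM in B16F10 RFP+ and 578, 871 and 728 in RFP-, against 1107, 1123 and 1317 and 1179, 1187 and 1332 in MC38. All 6 B16F10 libraries were below all 6 MC38 libraries (-0.61 ± 0.11, adjusted p = 0.000297). Hsp90b1 did not pass (0.12 ± 0.11, 0.319), at 307 to 552 against 384 to 461 FPKM. The J-domain cochaperones of BiP, Dnajb9 (10.9 to 25.5 against 27.7 to 32.7 FPKM, -0.86 ± 0.15, 0.000214) and Dnajc3 (18.6 to 27.6 against 29.6 to 35.1, -0.40 ± 0.10, 0.00249), were lower in B16F10 without overlap. Hyou1, the exchange factor of BiP, was higher (0.53 ± 0.14, 0.00481), and Sdf2l1 did not pass (0.14 ± 0.17, 0.478). Scaled to the macrophage core genes, Hspa5 turned to 1.40, Dnajb9 to 1.15 and Dnajc3 to 1.61.

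Pdia4 was the ER arm gene with the clearest difference between tumours. It stood at 263, 261 and 286 FPKM in B16F10 RFP+ and 200.3, 218 and 209.6 in RFP-, against 83.4, 104 and 104 and 95.7, 96.8 and 101 in MC38. The lowest B16F10 library lay well above the highest MC38 library, and the mean log2 difference was 1.28 ± 0.08 (adjusted p = 2.29e-08, limma). Pdia6 (0.38 ± 0.08, 0.0011) and Creld2 (0.68 ± 0.10, 4.86e-05) were also higher without overlap, Creld2 at 92.6 to 134 against 59.3 to 78.6 FPKM. Of the lectin chaperones that retain unfolded glycoproteins, Canx was higher (0.37 ± 0.11, 0.00647) and Calr did not pass (0.20 ± 0.09, 0.0643). Canx missed the threshold under quantile normalization and upper-quartile scaling (adjusted p up to 0.144). Manf, a secreted protein of the stressed ER, did not pass (0.24 ± 0.11, 0.0682).

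Both degradation genes were lower in B16F10. Herpud1, at 47.9 to 95.3 against 79.9 to 162 FPKM, had -0.72 ± 0.14 (adjusted p = 0.000465, limma), and the tumours overlapped, with the lowest MC38 RFP+ library at 79.9 FPKM. Edem1, which leads misfolded glycoproteins to degradation, had -0.24 ± 0.10 (0.0415), a call that 9 of the 12 single libraries ended when left out (adjusted p up to 0.107), as did the block. Scaled to the macrophage core genes the values were 1.29 and 1.78.

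In the values as deposited, the presence of the ER stress element did not part the genes by direction. Of its 7 carriers, Creld2, Pdia6 and Canx were higher in B16F10, Hspa5 and Dnajc3 lower, and Hsp90b1 and Calr did not pass. The 3 ATF4 arm genes with the C/EBP-ATF element, Asns, Chac1 and Pycr1, were all higher, as were 11 of the 14 other genes of that arm (Slc7a5 among them, which had no promoter entry). Herpud1, with the same element, was lower. Scaled to the macrophage core genes, all 7 carriers of the ER stress element passed as higher, as did all 18 ER arm genes and 92.9% of all genes. Hspa5 then had 1.40, Dnajc3 1.61 and Herpud1 1.29.

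Within each library, the distance between the arms needs no scaling between libraries. The ER arm's median log2(FPKM + 1) lay 0.15 to 0.63 above the ATF4 arm's in the 6 B16F10 libraries and 1.19 to 1.91 above it in the 6 MC38 libraries, with no overlap. In MC38 the ATF4 arm's median was 4.56 to 5.02 and the ER arm's 6.15 to 6.46. In B16F10 they were 5.53 to 6.46 and 6.16 to 6.75. In the values as deposited, the ER arm's ranges overlapped between the tumours and the ATF4 arm's did not. Unlike the distance, these levels depend on scaling. Scaled to the macrophage core genes, the ER arm's median difference between tumours (mean of both gates) moved from 0.13 to 2.15.

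**Figure D5:**
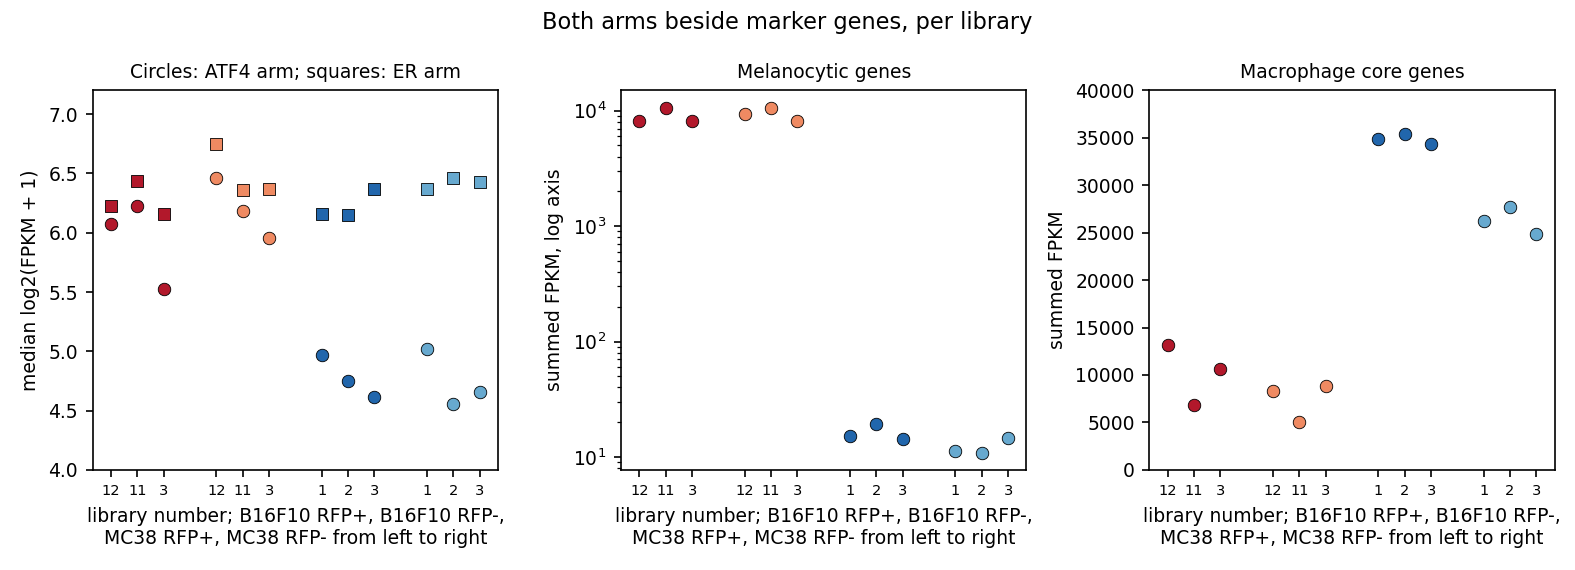
Left, the median log2(FPKM + 1) of the 17 ATF4 arm genes (circles) and the 18 ER arm genes (squares) in each library; centre and right, summed FPKM of 7 melanocytic genes (log axis) and of 10 macrophage core genes. The arms lie 0.15 to 0.63 apart in B16F10, where melanocytic genes are high and core genes low, and 1.19 to 1.91 apart in MC38.

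Genes outside the 35, of the same pathways or of other chaperone systems, were counted from further lists. In each list the genes with the lowest adjusted p are named. The counts are of the values as deposited and were not repeated under other scalings. Of 21 other ATF4 targets kept, 15 were higher and 5 lower in B16F10 (mean of both gates), among them the arginine transporter Slc7a1 (1.98 ± 0.14), the mitochondrial folate enzymes Aldh1l2 (2.10 ± 0.23) and Mthfd1l (1.61 ± 0.19) and, lower, the growth factor gene Vegfa (-1.65 ± 0.21). Of 12 tRNA synthetases, which charge tRNAs with amino acids, 11 were higher and 1 lower, with Gars at 1.79 ± 0.13, Sars at 1.72 ± 0.16 and Aars at 1.47 ± 0.12. Of 10 genes of the eIF2 kinases, eIF2, its exchange factor eIF2B and its phosphatase, 6 were higher and 2 lower. There Eif2b1 had 1.40 ± 0.12 and Eif2b5 0.87 ± 0.11, both subunits of eIF2B, and Eif2ak2, the kinase PKR that senses double-stranded RNA, had -1.55 ± 0.19. All these passed (limma, adjusted p under the threshold), beside 44% and 25.4% of all genes.

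Other ER folding and secretion genes were higher in 13 and lower in 6 of 26. This was close to the shares of all genes, 44% higher and 25.4% lower (mean of both gates). The same shares apply beside the counts that follow. Among the higher genes were Fkbp11 (2.84 ± 0.22), a prolyl isomerase, and P4hb (0.93 ± 0.09), the classic disulfide isomerase. Ero1l (2.02 ± 0.20), the oxidase that recharges P4hb, was also higher. Of 11 further genes of ER-associated degradation, 1 was higher (Derl1, 0.37 ± 0.08) and 2 lower (Ube2j1, -0.78 ± 0.10, and Os9, -0.49 ± 0.13). Of 11 cytosolic heat shock genes, 6 were lower and 3 higher in the values as deposited, with Hspa8 at -0.94 ± 0.13, Hsp90aa1 at 1.07 ± 0.13 and the master factor Hsf1 at 0.97 ± 0.16. Mitochondrial chaperones and proteases were higher in 6 of 7 and lower in 0, among them Hspd1 (1.96 ± 0.11), Lonp1 (2.38 ± 0.16) and Trap1 (1.38 ± 0.10).

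Between the reporter gates, 0 genes of these 7 lists passed as the mean of both tumours. With the block, 1 of 21 other ATF4 targets, 1 of 26 other ER folding and secretion genes and 0 genes of the other lists passed, where 1.92% of all genes did, so the counts say nothing particular about the lists. Vegfa (0.61 ± 0.21, adjusted p = 0.475 without and 0.0244 with the block) and Ero1l (0.55 ± 0.20, 0.526 and 0.0342, limma) were the 2 genes higher in RFP+, each in 6 of 6 pairs. Ero1l averaged 325 ± 77.3 FPKM in B16F10 RFP+ and 240 ± 113 in RFP- (SD, n = 3), against 80.4 ± 14.5 and 53.1 ± 3.19 in MC38.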

How the data were processed

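Gene-level FPKM values, 1 table per library and 12 tables in all, were used as deposited, with the unit named per the file headers. RNA was taken up in TRI Reagent and turned into libraries with the SMART-Seq HT and Nextera XT kits, per the labels' protocols. The submitters' processing notes list Cuffdiff 2.2.1, SAMtools 0.1.18, TopHat2 2.1.1 and Bowtie2 2.2.8, and the mm10 genome. How strands were counted, the annotation and any scaling between libraries: not given in the sources used here.

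Repeated symbols were summed. Values were tested as log2(FPKM + 1) with limma 3.58.1 under R 4.3.3 (linear fit, then empirical Bayes with a mean trend), in 1 model of 4 group means with 8 residual degrees of freedom, over the 11808 genes that reached 1 FPKM in 3 or more libraries. Differences are given with their SE. A log2 difference of FPKM + 1 understates changes of low genes. Two-sided p-values were adjusted over the genes kept (Benjamini-Hochberg), with a threshold of 0.05. The comparisons were RFP+ minus RFP- in each tumour, their mean and their difference, and B16F10 minus MC38 in each gate and as the mean of both. Levels carry no counting error, since depth is known only as the relative value of 1 read. The fit was tested on simulated data. Sequences came from RefSeq promoters and plots were made with Python 3.11.15, pandas 2.3.3 and matplotlib 3.10.9.

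The same title numbers occur in both gates. Deviations from the group means correlated across genes with r of 0.228 to 0.443 in the 6 same-number pairs (each above 0.1) and of -0.306 to 0.0178 between different numbers. The number was therefore also fitted as a block (4 residual degrees of freedom in gate comparisons, a random block with a correlation of 0.291 in tumour comparisons).

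The genes, the lists and the tests were chosen with earlier results of these data known. In each comparison up to 12 members past the threshold are named by adjusted p, and where fewer than 6 passed, those with the largest difference and a mean of at least 5 FPKM fill up to 6. Atf4, Ddit3, Xbp1, Hspa5, Eif2ak3, Ern1 and Atf6 are named for both gates. Up to 3 genes past the threshold are named from each further list. Members beyond these are named so that each of the 35 is accounted for, after their values were seen. Alternatives were other pseudocounts (0.1, 5) and filters (5 FPKM, or none), quantile and upper-quartile scaling, scaling to 10 macrophage core genes, the block, the compared groups alone and each library left out. The block without the pair number 12 was added after seeing the data.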

Additional observations from a re-analysis of the deposited data

How the results depend on the processing

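Of 118 log2 differences of named members, refitted under each alternative (2545 values), 2398 kept direction and side of the threshold, 97 fell short of it, 4 newly passed and 46 turned sign. The count of members past the threshold in the mean gate difference went from 0 to 1 (Herpud1) with the replicate block, and likewise with the block without the pair number 12 and without B16F10 RFP+ 11 (0 to 1 over all single libraries left out). In MC38 it went from 0 to 1 with the block without the pair number 12 (Herpud1, adjusted p = 0.02) and was 0 in the other settings run. Apart from these, Edem1 and Eif2ak3, the block changed no call of a named member.

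Left-out libraries gave 18 to 28 members past the threshold in RFP+ (24 with all), 23 to 27 in RFP- (26) and 27 to 31 in the mean tumour difference (30), and 0 in the B16F10, MC38 and difference-of-gates comparisons. Of the 30 calls in the mean tumour difference, 16 held in every setting, and 10 turned sign under scaling to the macrophage core genes. In RFP+ the calls of Hyou1, Hsp90b1, Herpud1, Hspa5, Slc3a2 and Cebpg, and in RFP- those of Edem1, Xbp1, Hyou1 and Ern1, ended without 1 library or more (adjusted p up to 0.168). The cause was not tested.

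Scaled to the macrophage core genes, the turned values were, in RFP+, Ppp1r15a 0.46, Dnajb9 1.16, Xbp1 1.27, Cebpg 1.36, Herpud1 1.37, Hspa5 1.47 and Slc3a2 1.47; in RFP-, Ppp1r15a 0.53, Cebpg 1.02, Dnajb9 1.15, Herpud1 1.21, Hspa5 1.33, Ern1 1.33, Atf6 1.38, Dnajc3 1.52, Xbp1 1.66 and Edem1 1.74; in the mean, Ppp1r15a 0.50, Dnajb9 1.15, Cebpg 1.19, Herpud1 1.29, Hspa5 1.40, Ern1 1.41, Atf6 1.44, Xbp1 1.46, Dnajc3 1.61 and Edem1 1.78. For the gates it gave Ddit3 -0.20, Hspa5 -0.097, Eif2ak3 -0.15 and Atf6 -0.27 in B16F10, Xbp1 -0.15 in MC38 and Dnajb9 -0.049 in the mean. Quantile normalization turned Atf4 in B16F10 (0.035) and Xbp1 in MC38 (-0.00738), and the block without the pair number 12 turned Atf4 (0.016) and Atf6 (-0.14) in B16F10. None of these gate values passed. Left-out libraries moved Trib3 from -0.80 to 0.15 and Atf6 from -0.14 to 0.25 in B16F10, and in MC38 Ddit3 from -0.37 to 0.17, Xbp1 from -0.042 to 0.081 and Eif2ak3 from -0.26 to 0.27.

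With 3 libraries a group, gate differences of the size of most members here could not be told from 0, and the low genes Atf5, Pycr1, Ern1 and Eif2ak3 stand at the lowest levels, where 1 read weighs most in the shallower B16F10 libraries. Depth is unknown beyond the relative worth of 1 read.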
